A study of Mus musculus with 12 samples.

Results

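The genes described here encode the proteins of the cytosolic ribosome, the particle that translates messenger RNA in the cytoplasm. They were chosen by name: symbols of the form Rpl or Rps with a number and at most 1 closing letter a, l, x or y, together with Rpsa, Rplp0, Rplp1 and Rplp2. The rule found 81 of 24421 symbols, and 79 of them had at least 10 counts in at least 3 libraries. Rpl26, with 0 or 1 count per library, and Rpl10l, with 5 counts in YAP1-TFE3 replicate 1, 1 in YAP1-FAM118B replicate 1, 1 in YAP1-MAMLD1-dR3R1 replicate 3 and 0 elsewhere, were left out. Of the 79 genes kept, 47 encode proteins of the large subunit or its stalk and 32 encode proteins of the small subunit.

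RNA was sequenced in bulk from 12 mouse samples in 4 groups of 3 libraries. Of the groups, 3 were whole brain tumours raised with RCAS viruses, avian retroviral vectors, that carried YAP1-TFE3, YAP1-FAM118B or YAP1-MAMLD1-dR3R1, and the remaining group was normal cortex without any injection, called naive. Each virus encoded a fusion of YAP1, the co-activator that the Hippo pathway restrains, with a second protein, and the study's title names functions that tumour-associated YAP1 fusions have in common. The labels name neither the mouse line nor the cells that take up the virus, and they do not explain the suffix dR3R1 or state whether replicates are different animals, so a p-value speaks of the scatter among these libraries alone. They also contradict each other, since the tissue entry of the naive samples reads brain tumour and the extraction text describes cultured cells.

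Total counts ran from 19850220 to 24760814 per library, and 3 counts corresponded to 0.121 to 0.151 CPM, the usual depth-scaled unit of read counts. The 12 neuron markers summed to 110.0 to 1214 CPM in YAP1-TFE3 tumours, 4580.5 to 6958 CPM in YAP1-FAM118B tumours and 567 to 1657 CPM in YAP1-MAMLD1-dR3R1 tumours, against 8801 to 11903 CPM in naive cortex. Both Xist and Y-linked transcripts were counted in YAP1-FAM118B replicate 2, with 3859 Xist counts and 1693 counts on 4 Y-linked genes, and in naive replicate 2, with 612 and 2610. The numbers of ribosomal protein genes called are therefore also given without both. All 3 YAP1-TFE3 libraries held 0 to 9 Xist counts and 3869 to 4911 counts on the Y-linked genes. YAP1-FAM118B replicate 1, YAP1-MAMLD1-dR3R1 replicate 1 and naive replicate 3 held 7793, 12686 and 6927 Xist counts and 0 to 3 Y-linked counts. Sex-linked transcripts were thus not balanced between the groups. What part this had in the levels, those of the X-linked Rpl10, Rpl39 and Rps4x included, was not tested.

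The cytosolic ribosome is built from ribosomal RNA and a fixed set of proteins, which are made in the cytoplasm, carried to the nucleolus and fitted onto the RNA. Messenger RNAs of ribosomal proteins typically begin with a C followed by a run of pyrimidines, the terminal oligopyrimidine (TOP) motif, through which the kinase mTORC1 controls their translation, and the factor MYC is known to raise transcription of these genes and of rRNA. Surplus Rpl5 and Rpl11, together with 5S rRNA, bind the ubiquitin ligase Mdm2 and so stabilise p53, which ties ribosome assembly to growth control.

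Sequence at the transcription start was compared between these genes and all genes. The RefSeq promoter table of build GRCm38.p6 held 58 of the 79 genes. A C at a listed start followed by at least 4 pyrimidines (C or T) was present in 13 of the 58 genes, or 22.4%, against 3.01% of the 27025 genes in the table. With the C allowed within 10 bases of the listed start the shares were 63.8% and 34.4%. The windows below span 30 bases, 15 on each side of the start, 5′ to 3′, with the tract in capitals. Where RefSeq lists several starts for a gene, the gene was counted if any of them had the feature, and the start with the tract is the one shown. The first 9 genes carry the tract and are described below or differ between the tumour types, and Rplp0 and Rps27l, whose listed starts have no tract, are shown because their levels changed most among well counted genes.
Rplp2 (chr7:141447636-141447665, plus strand): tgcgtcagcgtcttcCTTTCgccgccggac
Rpl14 (chr9:120571502-120571531, plus strand): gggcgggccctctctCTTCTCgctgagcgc
Rpl15 (chr14:18270972-18271001, minus strand): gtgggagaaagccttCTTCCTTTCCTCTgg
Rpl35a (chr16:33056467-33056496, plus strand): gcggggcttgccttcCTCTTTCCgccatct
Rpl38 (chr11:114668565-114668594, plus strand): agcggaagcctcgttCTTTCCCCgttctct
Rps6 (chr4:86857353-86857382, minus strand): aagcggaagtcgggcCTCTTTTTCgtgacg
Rps18 (chr17:33955651-33955680, minus strand): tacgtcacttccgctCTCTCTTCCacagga
Rps21 (chr2:180257364-180257393, plus strand): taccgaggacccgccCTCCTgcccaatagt
Rps27 (chr3:90213634-90213663, minus strand): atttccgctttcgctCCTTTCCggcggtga
Rplp0 (chr5:115559452-115559481, plus strand): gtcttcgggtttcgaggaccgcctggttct
Rps27l (chr9:66946071-66946100, plus strand): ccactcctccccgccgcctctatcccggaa

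The promoters were also searched, over 300 bases and on both strands, for motifs of factors linked to growth. CCGGAA, the core bound by ETS factors such as GABPA, was present in 32 of the 58 genes, or 55.2%, against 16.7% of all genes in the table. CACGTG, the E-box bound by MYC and by TFE3, was in 10.3% of the ribosomal protein genes against 8.09% of all genes. GGAATG, bound by the TEAD factors that recruit YAP1, was in 8.62% against 16.6%, and TATAAA was in 10.3% against 15.7%. These matches describe the letters of the windows and not binding.

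Ribosomal protein transcripts took a larger share of the RNA in every tumour library than in any naive library. Their summed level was 16952, 15404 and 18501 CPM in YAP1-TFE3 tumours, 22796, 16912 and 25722 CPM in YAP1-FAM118B tumours and 23434, 29655 and 31094 CPM in YAP1-MAMLD1-dR3R1 tumours, against 7517, 8380.2 and 7592 CPM in naive cortex. The sum averaged 16952 ± 1549 CPM in YAP1-TFE3 tumours, 21809.7 ± 4487 CPM in YAP1-FAM118B tumours and 28061 ± 4071 CPM in YAP1-MAMLD1-dR3R1 tumours, against 7829.9 ± 478 CPM in naive cortex (SD, n = 3 each), which is 2.17, 2.79 and 3.58 times the naive mean. As a share of all counts, the genes took 1.46 to 1.62% in YAP1-TFE3 tumours, 1.79 to 2.65% in YAP1-FAM118B tumours and 2.49 to 3.09% in YAP1-MAMLD1-dR3R1 tumours, against 0.739 to 0.868% in naive cortex. The tumour groups met at their edges: YAP1-FAM118B replicate 2, at 16912 CPM, lay within the YAP1-TFE3 range, and YAP1-MAMLD1-dR3R1 replicate 1, at 23434 CPM, lay within the YAP1-FAM118B range.

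**Figure D1:**
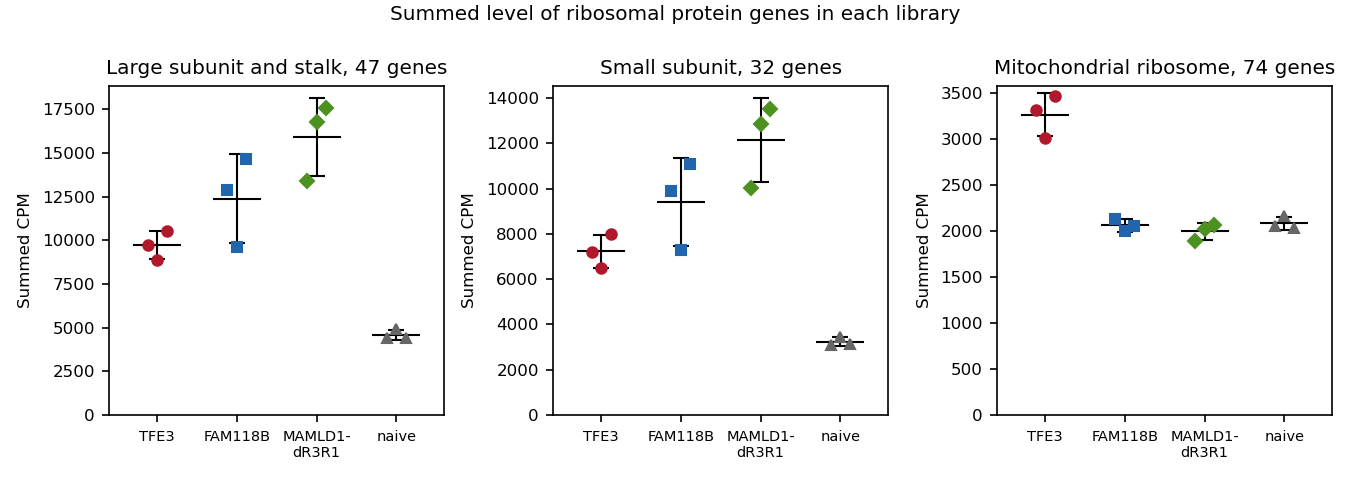
Summed CPM of the large subunit and stalk genes, the small subunit genes and the mitochondrial ribosomal protein genes in each library. Points are libraries, and bars are the mean and SD of 3. All 9 tumour libraries lie above the 3 naive libraries for both cytosolic subunits, while for the mitochondrial genes the YAP1-TFE3 libraries, at 3013 to 3472 CPM, stand above the rest, at 1894 to 2163 CPM.

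The 2 subunits moved together. Large subunit and stalk genes summed to 9724 ± 814 CPM in YAP1-TFE3 tumours, 12389 ± 2550.1 CPM in YAP1-FAM118B tumours and 15923 ± 2226 CPM in YAP1-MAMLD1-dR3R1 tumours, against 4593 ± 277 CPM in naive cortex (SD, n = 3 each). Small subunit genes summed to 7228 ± 736 CPM in YAP1-TFE3 tumours, 9421 ± 1938 CPM in YAP1-FAM118B tumours and 12138 ± 1845 CPM in YAP1-MAMLD1-dR3R1 tumours, against 3237 ± 202 CPM in naive cortex. The ratio of the 2 sums was 1.32 to 1.37 in YAP1-TFE3 tumours, 1.30 to 1.32 in YAP1-FAM118B tumours and 1.30 to 1.33 in YAP1-MAMLD1-dR3R1 tumours, against 1.40 to 1.44 in naive cortex, so the small subunit share was slightly higher in every tumour library than in any naive library.

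Within each tumour group most of the genes were lowest in the same library, while in naive cortex they were divided. There replicate 1 was the lowest for 43 genes, replicate 3 for 33 and replicate 2 for 3. The same order over all genes tested was not counted. In YAP1-FAM118B tumours, replicate 2 was the lowest of the 3 libraries for 78 of the 79 genes. In YAP1-MAMLD1-dR3R1 tumours, replicate 1 was the lowest for 76 genes, and in YAP1-TFE3 tumours, replicate 2 was the lowest for 70 genes. The same YAP1-FAM118B library had the lowest sum of the 8 fibroblast markers in its group, at 4857 CPM against 17561 and 23302 CPM in replicates 1 and 3, and the highest sum of neuron markers, at 6958 CPM against 5554 and 4580.5 CPM. The YAP1-TFE3 library had the highest neuron sum of its group, at 1214 CPM against 110.0 and 144 CPM in replicates 1 and 3, and YAP1-MAMLD1-dR3R1 replicate 1 likewise, at 1657 CPM against 1276 and 567 CPM. The fibroblast sum was not the lowest in these 2 libraries. It was 3341 CPM in YAP1-TFE3 replicate 2, against 4499 and 1578 CPM in replicates 1 and 3. In YAP1-MAMLD1-dR3R1 replicate 1 it was the highest of its group, at 8128 CPM against 4556 and 6751 CPM. What part the mixture of cells had in these differences was not tested, and in bulk tissue fewer cells of a type and less RNA per cell cannot be told apart.

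Levels were compared between genes per kilobase of coding sequence. Rplp1, an acidic stalk protein that contacts elongation factors, had the highest level in every group, with 1618 CPM per kb in YAP1-TFE3 tumours, 2108 CPM per kb in YAP1-FAM118B tumours and 2588 CPM per kb in YAP1-MAMLD1-dR3R1 tumours, against 849 CPM per kb in naive cortex. The median over the 78 genes with an annotated coding length was 402, 488 and 620 CPM per kb in those tumour groups, against 173 CPM per kb in naive cortex. Rpl3l, Rpl39l, Rpl30, Rpl34 and Rps27 had 0.196 to 12.5 CPM per kb over the groups. Rpl3l and Rpl39l are tissue-restricted paralogues, while Rpl30, Rpl34 and Rps27 are ordinary subunits for which few reads were counted. Of the 50-base stretches of the Rps27 transcript, 98.6% also occur in transcripts of other genes, against 37.9% for Rpl34, 29.7% for Rpl30 and a median of 42.5% over the 78 genes. Rpl10, which was well counted, shares 85.4%. What part the sharing of sequence had in the low counts was not tested.

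Against naive cortex, nearly the whole set rose in each tumour type, by edgeR's quasi-likelihood test with Benjamini-Hochberg adjustment over 16364 genes. In YAP1-TFE3 tumours 74 of the 79 genes were higher, where 40.6% of all genes tested were, and 0 were lower, where 30% of all genes were. In YAP1-FAM118B tumours 73 were higher, against 21.3% of all genes, and 0 were lower, against 8.45%. In YAP1-MAMLD1-dR3R1 tumours 74 were higher, against 34.4% of all genes, and 0 were lower, against 28.8%. For each of these counts of 0, no gene was lower at an unadjusted p under 0.05 in edgeR and none was lower in DESeq2, which called 71, 73 and 74 genes higher in the same order. Without YAP1-FAM118B replicate 2 and naive replicate 2, edgeR called 73, 73 and 74 higher.

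The genes also moved by similar amounts. Their median log2 fold change was 1.12 in YAP1-TFE3 tumours, 1.44 in YAP1-FAM118B tumours and 1.78 in YAP1-MAMLD1-dR3R1 tumours, where the medians over all genes were 0.23, -0.05 and 0.06. The distance between the quartiles was 0.47, 0.46 and 0.53 for the ribosomal protein genes and 2.45, 1.17 and 2.06 for all genes. It was 0.61, 0.32 and 0.50 for mitochondrial ribosomal protein genes and 0.56, 0.51 and 0.64 for translation factors. A narrow spread was therefore not particular to the cytosolic set. In 73 of the 79 genes all 9 tumour libraries lay above all 3 naive libraries, and 72 genes were called higher in all 3 tumour types, which were compared with the same naive libraries. The 7 others were Rpl30, Rpl34, Rpl39l, Rpl3l, Rps21, Rps27 and Rps4l. The shares of all genes tested with either pattern were not counted, so the 73 and 72 have no background beside them. With the libraries scaled by RLE factors, upper-quartile factors or library size alone, between 70 and 72 genes were higher in YAP1-TFE3 tumours, and the median log2 fold change of all genes shifted by -0.19 to -0.12, while the median of the ribosomal protein genes was 0.92 to 0.99.

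**Figure D2:**
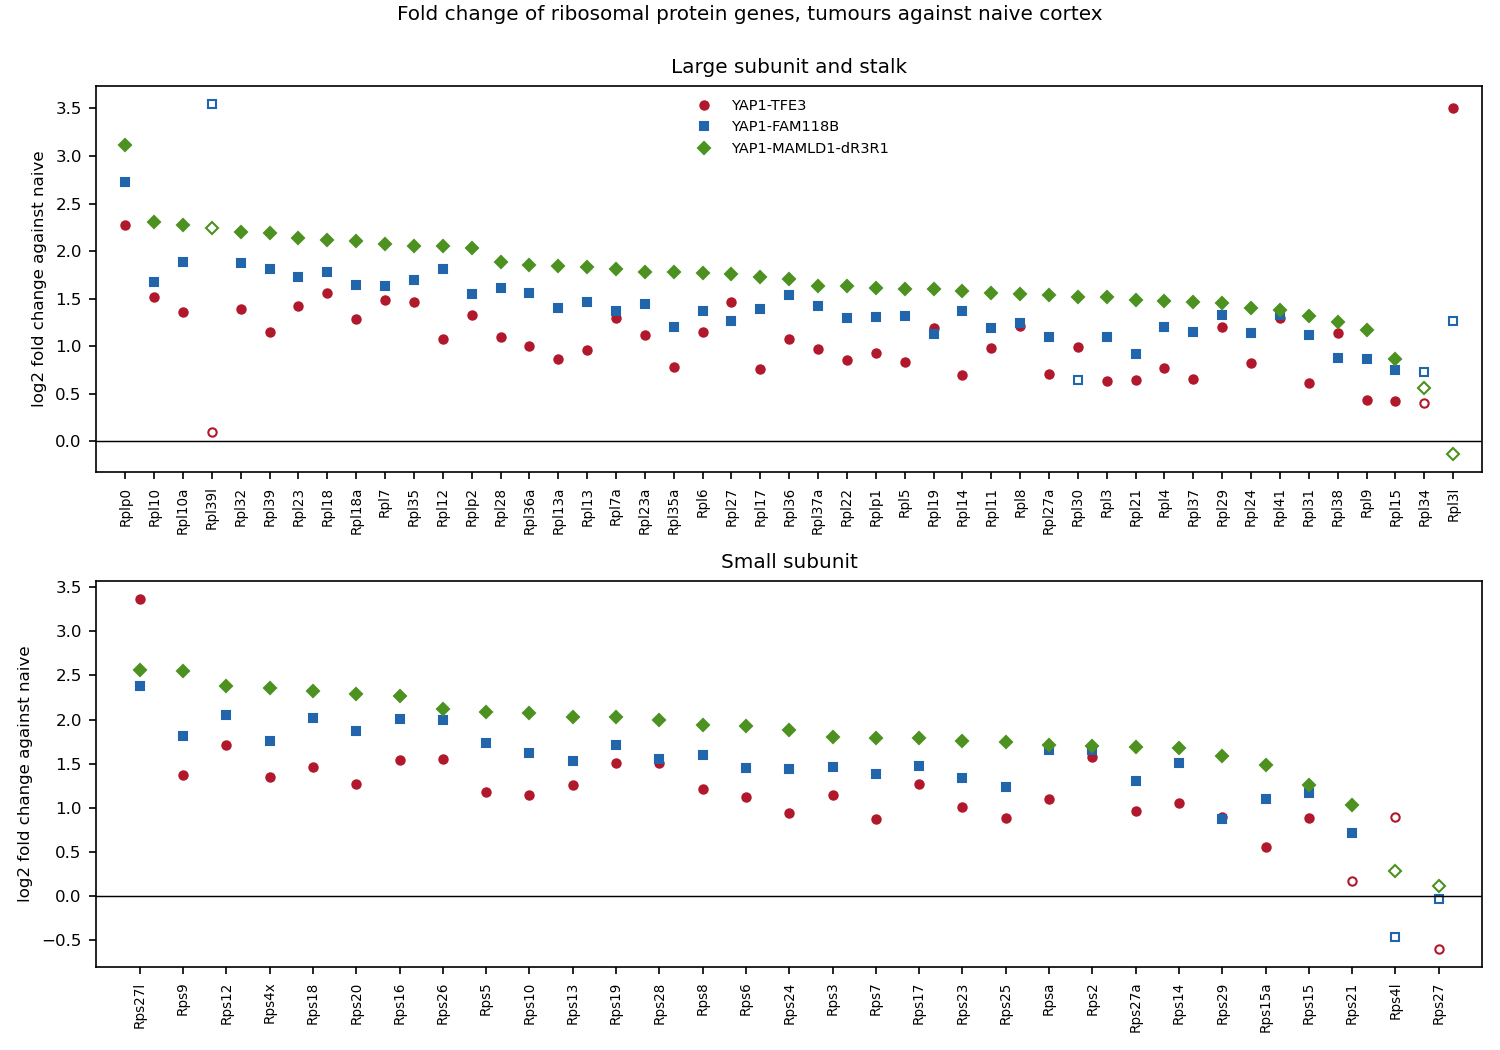
log2 fold change of 78 of the 79 genes in the 3 tumour types against naive cortex, sorted by the value in YAP1-MAMLD1-dR3R1 tumours, with filled symbols for an adjusted p under 0.05 and open symbols otherwise. Most genes lie in the order YAP1-TFE3, YAP1-FAM118B, YAP1-MAMLD1-dR3R1 from low to high, and Rplp0, Rps27l and Rpl3l stand apart from the band, as does the uncalled Rpl39l, at 3.55 in YAP1-FAM118B tumours.

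The fitted fold changes kept the order YAP1-TFE3, YAP1-FAM118B, YAP1-MAMLD1-dR3R1, low to high, in 69 of the 79 genes, and in 74 genes the value was highest in YAP1-MAMLD1-dR3R1 tumours. Neither pattern was counted over all genes tested, so the 69 and 74 have no background beside them. The values of a gene share the same naive libraries, and the genes moved together between libraries, so they are not separate observations of the order.

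The stalk of the large subunit, which recruits the elongation factors, was led by Rplp0, the protein that anchors the stalk to rRNA. Rplp0 had 769, 688 and 746 CPM in YAP1-TFE3 tumours and 1071, 671 and 1271 CPM in YAP1-FAM118B tumours. It had 1056, 1416 and 1455 CPM in YAP1-MAMLD1-dR3R1 tumours, against 148, 159.9 and 146 CPM in naive cortex. All tumour libraries were far above the naive ones, and YAP1-FAM118B replicate 2, at 671 CPM, was below the YAP1-TFE3 libraries. The log2 fold change of Rplp0 was 2.28 ± 0.23 in YAP1-TFE3 tumours, 2.73 ± 0.24 in YAP1-FAM118B tumours and 3.11 ± 0.24 in YAP1-MAMLD1-dR3R1 tumours (± SE), with edgeR adjusted p of 2.11e-05, 4.43e-05 and 9.68e-06. As a share of the summed ribosomal protein level, Rplp0 took 4.03 to 4.54% in YAP1-TFE3 tumours, 3.97 to 4.94% in YAP1-FAM118B tumours and 4.50 to 4.78% in YAP1-MAMLD1-dR3R1 tumours, against 1.91 to 1.97% in naive cortex.

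Its partners rose with the bulk of the genes. Rplp1 had 559, 533 and 568 CPM in YAP1-TFE3 tumours and 804, 559 and 799.7 CPM in YAP1-FAM118B tumours. It had 757, 977 and 921 CPM in YAP1-MAMLD1-dR3R1 tumours, against 280.2, 322 and 269 CPM in naive cortex. The ratio of Rplp0 to Rplp1 was 1.29 to 1.38 in YAP1-TFE3 tumours, 1.20 to 1.59 in YAP1-FAM118B tumours and 1.39 to 1.58 in YAP1-MAMLD1-dR3R1 tumours, against 0.497 to 0.544 in naive cortex, with no overlap between tumours and cortex. Rplp2, the second acidic protein of the stalk, averaged 194 ± 22.8 CPM in YAP1-TFE3 tumours, 227 ± 48.5 CPM in YAP1-FAM118B tumours and 316 ± 44.7 CPM in YAP1-MAMLD1-dR3R1 tumours, against 77.4 ± 3.57 CPM in naive cortex (SD, n = 3 each). The log2 fold changes of Rplp2 were 1.33 ± 0.18, 1.55 ± 0.18 and 2.03 ± 0.18 (± SE) in the tumour groups in that order. Rpl12, which sits at the stalk base beside Rplp0, had 195, 169.7 and 201 CPM in YAP1-TFE3 tumours and 338, 230.2 and 370.0 CPM in YAP1-FAM118B tumours. It had 352, 376 and 386 CPM in YAP1-MAMLD1-dR3R1 tumours, against 90.1, 100.4 and 77.3 CPM in naive cortex. Its log2 fold changes were 1.08 ± 0.18, 1.81 ± 0.18 and 2.06 ± 0.19, so the YAP1-TFE3 libraries were the lowest tumour libraries and the groups did not overlap with cortex.

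Among the large subunit proteins of the Mdm2 checkpoint, Rpl5 had 130.4, 107 and 127 CPM in YAP1-TFE3 tumours, 177, 132 and 199 CPM in YAP1-FAM118B tumours and 179, 213 and 229.9 CPM in YAP1-MAMLD1-dR3R1 tumours, against 65.4, 77.0 and 61.8 CPM in naive cortex. Rpl11 had 147, 140.3 and 169 CPM in YAP1-TFE3 tumours, 186, 151 and 192 CPM in YAP1-FAM118B tumours and 183, 227 and 273 CPM in YAP1-MAMLD1-dR3R1 tumours, against 65.5, 88.8 and 77.3 CPM in naive cortex. Both genes were higher in all tumour libraries than in any naive library, with log2 fold changes of 0.84 ± 0.17, 1.32 ± 0.18 and 1.61 ± 0.18 for Rpl5 and 0.98 ± 0.18, 1.19 ± 0.18 and 1.56 ± 0.18 for Rpl11 (± SE), values below the medians of the set. The YAP1-TFE3 call of Rpl5 was lost in edgeR's test against 1.5-fold, with an adjusted p of 0.0514. Rpl10, which completes the large subunit near the peptidyl transferase centre, averaged 299 ± 56.5 CPM in YAP1-TFE3 tumours, 333 ± 96.4 CPM in YAP1-FAM118B tumours and 518 ± 64.1 CPM in YAP1-MAMLD1-dR3R1 tumours, against 104 ± 6.46 CPM in naive cortex (SD, n = 3 each). Rpl10 was above the set median in each tumour type, at 1.52 ± 0.23, 1.67 ± 0.23 and 2.31 ± 0.23 on the log2 scale.

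After Rplp0 and Rps27l, the largest fold changes of well counted genes were those of small subunit genes in each tumour type. Rps12, a protein of the head of the subunit, had 238, 221 and 306 CPM in YAP1-TFE3 tumours and 323, 231 and 416 CPM in YAP1-FAM118B tumours. It had 357, 437 and 424 CPM in YAP1-MAMLD1-dR3R1 tumours, against 73.7, 80.6 and 79.5 CPM in naive cortex. All tumour libraries exceeded the naive ones, and the ranges of the 3 tumour types ran into each other. The log2 fold changes of Rps12 were 1.71 ± 0.21, 2.05 ± 0.22 and 2.38 ± 0.22 (± SE), with edgeR adjusted p of 7.15e-05, 1.19e-04 and 2.04e-05. Rps18, also of the head and one of the TOP starts shown above, had 204, 189 and 227 CPM in YAP1-TFE3 tumours and 309, 232 and 370.4 CPM in YAP1-FAM118B tumours. It had 327, 385 and 419 CPM in YAP1-MAMLD1-dR3R1 tumours, against 73.4, 84.7 and 67.3 CPM in naive cortex. Its fold changes were 1.46 ± 0.18, 2.02 ± 0.19 and 2.33 ± 0.19, and the YAP1-TFE3 libraries lay below those of the other fusions.

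Rps9, which binds the rRNA of the small subunit early in its assembly, reached its highest level in YAP1-MAMLD1-dR3R1 tumours. Rps9 had 385, 351 and 469 CPM in YAP1-TFE3 tumours, 584, 415 and 641 CPM in YAP1-FAM118B tumours and 686, 1017 and 1033 CPM in YAP1-MAMLD1-dR3R1 tumours, against 145, 165 and 156 CPM in naive cortex. The 3 YAP1-MAMLD1-dR3R1 libraries stood above every other library, and the YAP1-TFE3 and YAP1-FAM118B libraries overlapped. The log2 fold change of Rps9 in YAP1-MAMLD1-dR3R1 tumours was 2.55 ± 0.23 (± SE), against 1.78 at the set's median.

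Several proteins known for roles beyond the ribosome moved within the band. Rps6, the substrate of S6 kinase and a common readout of mTORC1 activity, had 136, 119.5 and 166 CPM in YAP1-TFE3 tumours and 182, 140.1 and 207 CPM in YAP1-FAM118B tumours. It had 198, 269 and 268 CPM in YAP1-MAMLD1-dR3R1 tumours, against 58.8, 65.6 and 69.0 CPM in naive cortex. Its log2 fold changes of 1.12 ± 0.19, 1.45 ± 0.19 and 1.93 ± 0.19 (± SE) were near the medians of the set. Rps19, the gene most often mutated in human Diamond-Blackfan anaemia, averaged 185 ± 36.6 CPM in YAP1-TFE3 tumours, 215 ± 53.5 CPM in YAP1-FAM118B tumours and 266 ± 51.2 CPM in YAP1-MAMLD1-dR3R1 tumours, against 65.3 ± 9.71 CPM in naive cortex (SD, n = 3 each). Rpsa, known also as the laminin receptor precursor, averaged 502 ± 68.1 CPM in YAP1-TFE3 tumours, 742 ± 148 CPM in YAP1-FAM118B tumours and 771 ± 118 CPM in YAP1-MAMLD1-dR3R1 tumours, against 235 ± 21.95 CPM in naive cortex (SD, n = 3 each). Rps27a, made as a fusion with ubiquitin, averaged 194 ± 33.2 CPM in YAP1-TFE3 tumours, 245 ± 36.6 CPM in YAP1-FAM118B tumours and 322 ± 25.9 CPM in YAP1-MAMLD1-dR3R1 tumours, against 99.6 ± 2.66 CPM in naive cortex (SD, n = 3 each). Rpl22, whose loss is compensated by its paralogue Rpl22l1 in mice, averaged 161 ± 10.2 CPM in YAP1-TFE3 tumours, 219 ± 37.7 CPM in YAP1-FAM118B tumours and 277 ± 37.1 CPM in YAP1-MAMLD1-dR3R1 tumours, against 89.2 ± 8.15 CPM in naive cortex (SD, n = 3 each). Rpl13a, a protein that also blocks translation of inflammatory messenger RNAs in human monocytes, averaged 501 ± 58.3 CPM in YAP1-TFE3 tumours, 726 ± 161 CPM in YAP1-FAM118B tumours and 988 ± 231 CPM in YAP1-MAMLD1-dR3R1 tumours, against 275 ± 12.3 CPM in naive cortex (SD, n = 3 each). Each of these genes was called higher in all 3 tumour types. The YAP1-TFE3 call of Rpl13a was lost without naive replicate 1, at 0.65 with an edgeR adjusted p of 0.0532. It was also lost in edgeR's test against 1.5-fold, with an adjusted p of 0.0659.

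Well counted genes with small rises included Rps21, Rpl15 and Rpl9. Rps21, a protein at the solvent side of the small subunit, had 171, 167 and 165 CPM in YAP1-TFE3 tumours and 272, 203 and 259 CPM in YAP1-FAM118B tumours. It had 256, 320.1 and 336 CPM in YAP1-MAMLD1-dR3R1 tumours, against 137, 179.8 and 130.4 CPM in naive cortex. The YAP1-TFE3 libraries lay inside the naive range, with a log2 fold change of 0.17 ± 0.17 and an edgeR adjusted p of 0.380, and the other fusions lay above it, at 0.71 ± 0.17 and 1.03 ± 0.17 (± SE). Rpl15 had 123, 132 and 120.1 CPM in YAP1-TFE3 tumours and 161, 142 and 167 CPM in YAP1-FAM118B tumours. It had 142, 169 and 198 CPM in YAP1-MAMLD1-dR3R1 tumours, against 93.3, 98.3 and 87.9 CPM in naive cortex. Its tumour libraries stood above cortex by small amounts, at 0.42 ± 0.13, 0.75 ± 0.13 and 0.87 ± 0.13 on the log2 scale. Rpl9 averaged 265 ± 23.2 CPM in YAP1-TFE3 tumours, 359 ± 53.9 CPM in YAP1-FAM118B tumours and 441 ± 62.0 CPM in YAP1-MAMLD1-dR3R1 tumours, against 196 ± 16.4 CPM in naive cortex (SD, n = 3 each). The log2 fold changes of Rpl9 were 0.43 ± 0.16, 0.87 ± 0.16 and 1.17 ± 0.16.

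The paralogues whose symbols end in l each had a pattern of their own. Rps27l, a close relative of Rps27 that is a p53 target in human cells, had 96.1, 80.8 and 101 CPM in YAP1-TFE3 tumours and 49.4, 30.02 and 60.8 CPM in YAP1-FAM118B tumours. It had 47.8, 55.3 and 55.5 CPM in YAP1-MAMLD1-dR3R1 tumours, against 7.27, 8.04 and 11.5 CPM in naive cortex. Every tumour library exceeded every naive one, and the YAP1-TFE3 libraries stood above all the other tumours. The log2 fold changes of Rps27l were 3.37 ± 0.27, 2.38 ± 0.26 and 2.56 ± 0.26 (± SE), with edgeR adjusted p of 5.52e-06, 1.42e-04 and 3.60e-05. As a share of the summed ribosomal protein level, Rps27l took 0.525 to 0.567% in YAP1-TFE3 tumours, 0.177 to 0.236% in YAP1-FAM118B tumours and 0.179 to 0.204% in YAP1-MAMLD1-dR3R1 tumours, against 0.0960 to 0.152% in naive cortex.

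Rpl3l, the paralogue of Rpl3 found mainly in striated muscle, was scarce. It had 56, 45 and 98 counts in YAP1-TFE3 tumours, 16, 11 and 18 counts in YAP1-FAM118B tumours and 10, 5 and 2 counts in YAP1-MAMLD1-dR3R1 tumours, against 7, 9 and 3 counts in naive cortex. It had 2.70, 1.995 and 4.55 CPM in YAP1-TFE3 tumours and 0.657, 0.462 and 0.830 CPM in YAP1-FAM118B tumours. It had 0.388, 0.242 and 0.0887 CPM in YAP1-MAMLD1-dR3R1 tumours, against 0.287, 0.377 and 0.132 CPM in naive cortex. The YAP1-TFE3 libraries were above all others, with a log2 fold change of 3.51 ± 0.61 (± SE) against naive and an edgeR adjusted p of 5.54e-04, while the other fusions did not pass, and the libraries with 10 or more Rpl3l counts were those of YAP1-TFE3 and YAP1-FAM118B tumours and YAP1-MAMLD1-dR3R1 replicate 1. Rpl3 itself, which lies near the peptidyl transferase centre, averaged 285 ± 17.9 CPM in YAP1-TFE3 tumours, 392 ± 51.7 CPM in YAP1-FAM118B tumours and 524 ± 76.2 CPM in YAP1-MAMLD1-dR3R1 tumours, against 184 ± 16.8 CPM in naive cortex (SD, n = 3 each). Its fold changes were 0.64 ± 0.15, 1.09 ± 0.15 and 1.51 ± 0.16 on the log2 scale. The YAP1-TFE3 call of Rpl3 was lost without YAP1-TFE3 replicate 2 (0.41, edgeR adjusted p = 0.0736), without YAP1-TFE3 replicate 3 (0.44, adjusted p = 0.0592) and without naive replicate 1 (0.38, adjusted p = 0.0967). It was also lost in edgeR's test against 1.5-fold, with an adjusted p of 0.251.

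Rpl39l, the testis paralogue of Rpl39, was uneven within groups. It had 2, 1 and 8 counts in YAP1-TFE3 tumours, 58, 0 and 73 counts in YAP1-FAM118B tumours and 3, 46 and 0 counts in YAP1-MAMLD1-dR3R1 tumours, against 1, 0 and 10 counts in naive cortex. Each of YAP1-FAM118B replicates 1 and 3 and YAP1-MAMLD1-dR3R1 replicate 2 was above 2 CPM, and the 3 groups overlapped with cortex. Its log2 fold change against naive was 3.55 ± 1.94 (± SE) in YAP1-FAM118B tumours, the highest fitted value of any of the 79 genes there, with an edgeR adjusted p of 0.191, and no difference was called in any comparison. Rps4l, a paralogue of Rps4x, had 14.0, 51.4 and 13.8 CPM in YAP1-TFE3 tumours and 10.3, 8.56 and 11.9 CPM in YAP1-FAM118B tumours. It had 6.99, 22.9 and 22.1 CPM in YAP1-MAMLD1-dR3R1 tumours, against 10.4, 15.2 and 17.1 CPM in naive cortex. It stood out in YAP1-TFE3 replicate 2 and was called in no comparison with naive. Rps4x, the X-linked form, rose with the set, at 1.35 ± 0.19, 1.75 ± 0.19 and 2.36 ± 0.20 on the log2 scale (± SE).

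Rps27, Rpl34 and Rpl30, ordinary subunit proteins, were counted at low levels. Rps27 had 0.675, 0.887 and 0.511 CPM in YAP1-TFE3 tumours and 0.780, 1.30 and 1.01 CPM in YAP1-FAM118B tumours. It had 0.699, 1.35 and 1.37 CPM in YAP1-MAMLD1-dR3R1 tumours, against 0.944, 1.26 and 0.968 CPM in naive cortex. The YAP1-TFE3 libraries of Rps27 lay below all naive ones, with a log2 fold change of -0.61 ± 0.41 (± SE) that did not pass the test, and the other groups overlapped with cortex. Rpl34 averaged 1.18 ± 0.262 CPM in YAP1-TFE3 tumours, 1.47 ± 0.129 CPM in YAP1-FAM118B tumours and 1.31 ± 0.371 CPM in YAP1-MAMLD1-dR3R1 tumours, against 0.889 ± 0.136 CPM in naive cortex (SD, n = 3 each), with log2 values of 0.40 ± 0.35, 0.73 ± 0.35 and 0.56 ± 0.35 that did not pass. Rpl30 had 8 to 30 counts per library and passed in YAP1-TFE3 and YAP1-MAMLD1-dR3R1 tumours, at 1.00 ± 0.37 and 1.52 ± 0.37.

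**Figure D3:**
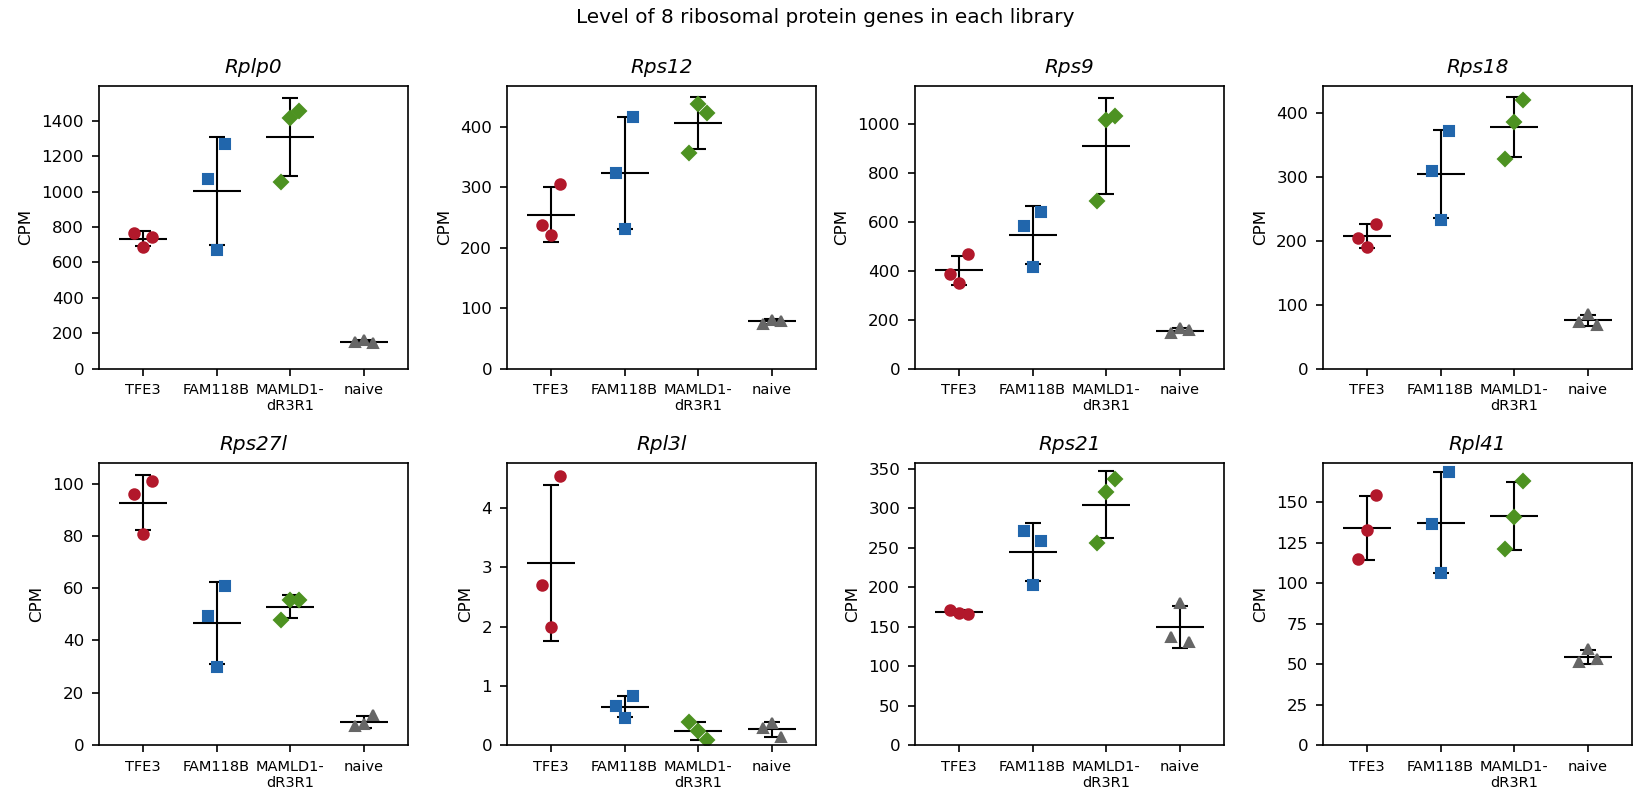
CPM of 8 genes in each library, with points for libraries and bars for the mean and SD of 3, each panel on its own axis from 0. Rplp0, Rps12, Rps9 and Rps18 climb from YAP1-TFE3 to YAP1-MAMLD1-dR3R1 tumours, Rps27l and Rpl3l are highest in YAP1-TFE3 tumours, Rps21 in YAP1-TFE3 tumours lies in the naive range, and the Rpl41 values of the tumours overlap.

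Most ribosome proteins that the naming rule leaves out were also higher in the tumours. Of 7 such genes tested, 6 were higher than naive in YAP1-TFE3 tumours, 6 in YAP1-FAM118B tumours and 7 in YAP1-MAMLD1-dR3R1 tumours, and 0 were lower in any. Of all genes tested, 40.6%, 21.3% and 34.4% were higher and 30%, 8.45% and 28.8% lower in the same order. Rpl22l1 was not called in YAP1-TFE3 tumours, at -0.06 ± 0.11 (± SE). The 7 genes summed to 1829 ± 269 CPM in YAP1-TFE3 tumours and 1830 ± 363 CPM in YAP1-FAM118B tumours (SD, n = 3 each). Their sum in YAP1-MAMLD1-dR3R1 tumours was 2419 ± 337 CPM. Gnb2l1, the older symbol of Rack1, a scaffold on the small subunit, averaged 951 ± 169 CPM in YAP1-TFE3 tumours, 872 ± 195 CPM in YAP1-FAM118B tumours and 1152 ± 148 CPM in YAP1-MAMLD1-dR3R1 tumours, against 178 ± 7.31 CPM in naive cortex (SD, n = 3 each). Its log2 fold changes, 2.42 ± 0.21, 2.29 ± 0.21 and 2.70 ± 0.22 (± SE), were above the medians of the set. Fau, which carries the small subunit protein Rps30 behind a ubiquitin-like domain, rose by 0.91 ± 0.21, 1.38 ± 0.21 and 1.93 ± 0.22 on the same scale.

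Other parts of the translation apparatus rose less evenly. Of all genes tested, 40.6% were called higher and 30% lower in YAP1-TFE3 tumours, 21.3% and 8.45% in YAP1-FAM118B tumours, and 34.4% and 28.8% in YAP1-MAMLD1-dR3R1 tumours. Of 33 translation factors, 31 were higher and 1 lower in YAP1-TFE3 tumours, 23 higher and 0 lower in YAP1-FAM118B tumours, and 27 higher and 1 lower in YAP1-MAMLD1-dR3R1 tumours, with median log2 fold changes of 0.96, 0.63 and 0.86. Pabpc1, the poly(A)-binding protein, rose by 1.85 ± 0.23, 2.32 ± 0.23 and 2.61 ± 0.24, and Eef1a1, which delivers charged transfer RNA to the ribosome, by 1.44 ± 0.20, 1.46 ± 0.20 and 2.12 ± 0.21 (± SE). Eif4a2 went the other way, at -1.57 ± 0.20 in YAP1-TFE3 tumours and -1.37 ± 0.20 in YAP1-MAMLD1-dR3R1 tumours, while its paralogue Eif4a1, the main helicase of initiation, was at 1.88 ± 0.16 and 1.07 ± 0.16.

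Of 49 genes of the nucleolus and ribosome assembly, 34 were higher and 3 lower in YAP1-TFE3 tumours, 19 higher and 1 lower in YAP1-FAM118B tumours, and 31 higher and 5 lower in YAP1-MAMLD1-dR3R1 tumours. Of 19 RNA polymerase I genes, 7, 2 and 10 were higher and 1, 0 and 1 were lower in the same order, where 40.6%, 21.3% and 34.4% of all genes were higher, so the polymerase I counts were near or below the background in YAP1-TFE3 and YAP1-FAM118B tumours. The median log2 fold changes were 0.76, 0.36 and 0.56 for the nucleolar genes and 0.26, 0.21 and 0.42 for polymerase I, below those of the ribosomal proteins. Of 11 transcripts that host small nucleolar RNAs, 3, 7 and 8 were higher and 2, 0 and 1 lower, and the count of 3 in YAP1-TFE3 tumours was below the background of 40.6%. Gas5 and Snhg1, hosts known to carry a TOP start, rose in YAP1-FAM118B tumours by 1.20 ± 0.17 and 2.12 ± 0.26 and in YAP1-MAMLD1-dR3R1 tumours by 1.35 ± 0.17 and 2.32 ± 0.26 (± SE). In YAP1-TFE3 tumours Snhg1 rose by 0.73 ± 0.25, while Gas5, at 50.9 ± 6.06 CPM against 48.8 ± 4.66 CPM in naive cortex, did not pass the test.

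The mitochondrial ribosome followed another pattern. Of its 74 genes, 52 were higher and 3 lower in YAP1-TFE3 tumours, with a median log2 fold change of 0.61, whereas 4 were higher and 3 lower in YAP1-FAM118B tumours, median -0.04, and 9 were higher and 18 lower in YAP1-MAMLD1-dR3R1 tumours, median -0.04. Of all genes tested, 40.6%, 21.3% and 34.4% were higher and 30%, 8.45% and 28.8% lower in the same order. Among the counts of the mitochondrial genes, that of 52 alone exceeded its share. The summed level of the 74 genes was 3267 ± 233 CPM in YAP1-TFE3 tumours, 2063 ± 66.3 CPM in YAP1-FAM118B tumours and 1998 ± 92.8 CPM in YAP1-MAMLD1-dR3R1 tumours, against 2084 ± 69.6 CPM in naive cortex (SD, n = 3 each). The tumour type with the smallest rise of cytosolic ribosomal proteins was the one with the highest mitochondrial sum in every library.

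**Figure D4:**
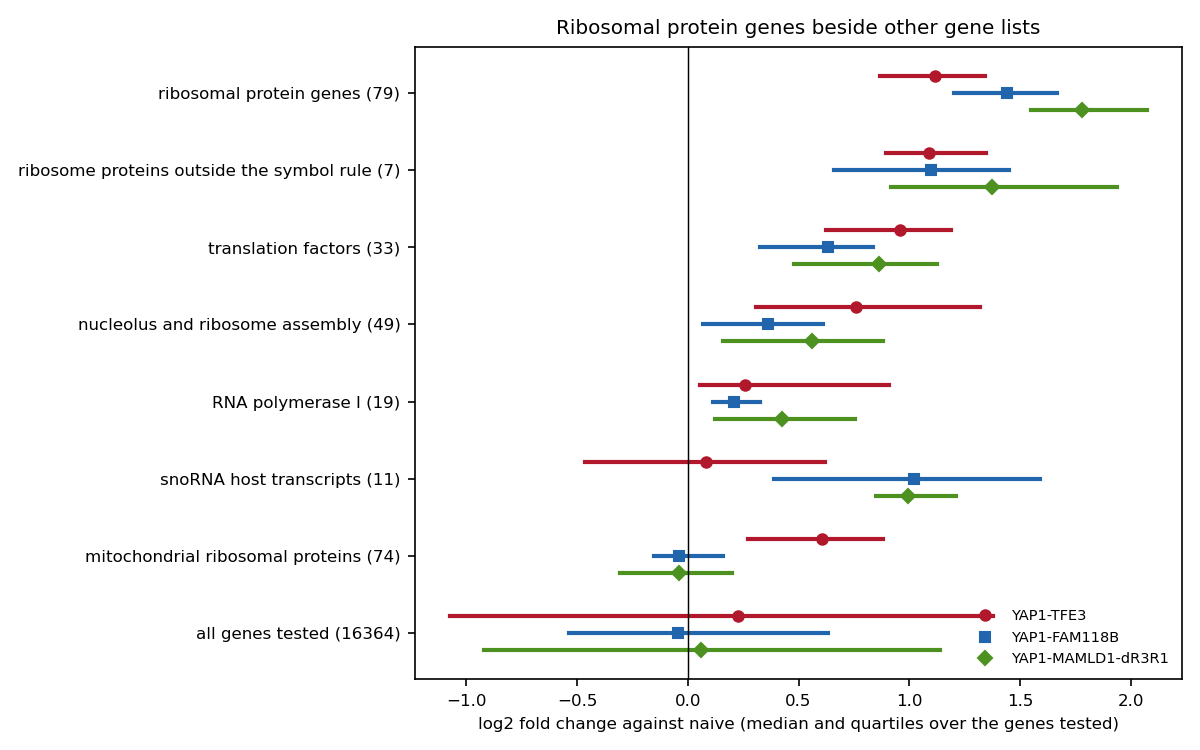
Median log2 fold change against naive cortex, with bars from the lower to the upper quartile over the genes tested, for the ribosomal protein genes, 6 related gene lists and all genes, with the number of genes in brackets. The ribosomal protein genes have medians of 1.12, 1.44 and 1.78, and the mitochondrial list is above 0 in YAP1-TFE3 tumours alone of the 3 medians.

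Known regulators of ribosome production were called in both directions, as were genes in general. Myc rose in each tumour type, at 30.4 ± 7.40 CPM in YAP1-TFE3 tumours, 46.4 ± 12.5 CPM in YAP1-FAM118B tumours and 50.2 ± 5.28 CPM in YAP1-MAMLD1-dR3R1 tumours, against 3.53 ± 0.458 CPM in naive cortex (SD, n = 3 each). The log2 fold changes of Myc were 3.10 ± 0.25, 3.71 ± 0.25 and 3.82 ± 0.26 (± SE). Of the 10 genes of the MYC family and its partners, 5 were higher and 4 lower in YAP1-TFE3 tumours, 2 higher and 1 lower in YAP1-FAM118B tumours, and 4 higher and 3 lower in YAP1-MAMLD1-dR3R1 tumours. Of 16 genes of mTORC1 and its outputs, 5, 2 and 5 were higher and 6, 2 and 5 lower. Of all genes 40.6%, 21.3% and 34.4% were higher and 30%, 8.45% and 28.8% lower. The MYC family counts in both directions and the mTORC1 counts of lower genes were near those shares. The mTORC1 counts of higher genes were near or below them. Eif4ebp1, the translation repressor that mTORC1 inactivates, rose by 4.50 ± 0.50, 4.88 ± 0.51 and 4.70 ± 0.50, while Mtor itself fell, at -1.05 ± 0.15, -0.55 ± 0.15 and -1.12 ± 0.15.

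Of 12 p53 targets, 10 were higher and 1 lower in YAP1-TFE3 tumours, 4 higher and 0 lower in YAP1-FAM118B tumours, and 8 higher and 2 lower in YAP1-MAMLD1-dR3R1 tumours. Of all genes tested, 40.6%, 21.3% and 34.4% were higher and 30%, 8.45% and 28.8% lower in the same order. Cdkn1a, the cell cycle inhibitor p21, had 153 ± 44.2 CPM in YAP1-TFE3 tumours, 73.4 ± 12.2 CPM in YAP1-FAM118B tumours and 66.1 ± 19.1 CPM in YAP1-MAMLD1-dR3R1 tumours, against 13.7 ± 4.98 CPM in naive cortex (SD, n = 3 each). Like Rps27l, Cdkn1a was higher in YAP1-TFE3 tumours than in either other fusion, by 1.06 ± 0.33 against YAP1-FAM118B and 1.21 ± 0.33 against YAP1-MAMLD1-dR3R1 on the log2 scale, with edgeR adjusted p of 0.0206 and 0.0150. In these 2 comparisons 10 and 9 of the 12 targets were higher and 1 and 0 lower. Of all genes, 28% and 22.6% were higher and 23.7% and 16.9% lower. What part p53 had in the level of Rps27l was not tested.

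Transcripts of the cell cycle and of cell type markers also differed between tumours and cortex. All 20 cell cycle genes tested were higher in each tumour type, and their sum was 2031 to 2626 CPM in YAP1-TFE3 tumours, 559 to 571 CPM in YAP1-FAM118B tumours and 729 to 1170.1 CPM in YAP1-MAMLD1-dR3R1 tumours, against 81.1 to 93.7 CPM in naive cortex. The order of the fusions in the cell cycle sum therefore differed from their order in ribosomal protein level. The 13 microglia and macrophage markers summed to 2958 to 6665 CPM in YAP1-TFE3 tumours, 2622 to 3629.7 CPM in YAP1-FAM118B tumours and 10674 to 12764 CPM in YAP1-MAMLD1-dR3R1 tumours, against 251 to 322 CPM in naive cortex, with 12, 12 and 13 of them called higher. The 8 fibroblast markers summed to 1578 to 4499 CPM in YAP1-TFE3 tumours, 4857 to 23302 CPM in YAP1-FAM118B tumours and 4556 to 8128 CPM in YAP1-MAMLD1-dR3R1 tumours, against 174 to 271 CPM in naive cortex, with 3, 5 and 6 called higher and 0 lower. Of 9 astrocyte markers 2, 0 and 1 were higher and 6, 1 and 3 lower, and of 10 oligodendrocyte markers 0, 1 and 1 were higher and 8, 2 and 4 lower. Of 7 endothelial markers 4, 1 and 6 were higher, and of 8 lymphocyte and NK cell markers tested 4, 0 and 6 were higher, with 0 lower in either list. Neuron markers were lower for 11, 1 and 9 of the 12. Of all genes tested, 40.6%, 21.3% and 34.4% were higher and 30%, 8.45% and 28.8% lower in the same order. Several marker counts were near or below those shares. Among them were the 3 fibroblast markers higher in YAP1-TFE3 tumours and the 3 astrocyte markers lower in YAP1-MAMLD1-dR3R1 tumours. So were the 1 endothelial marker higher and the 1 neuron and 1 astrocyte marker lower in YAP1-FAM118B tumours. None of these markers was at 0 in every library, and what part any of them had in the ribosomal protein levels was not tested.

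The widest difference between fusions was that of YAP1-TFE3 and YAP1-MAMLD1-dR3R1. In YAP1-TFE3 tumours 61 of the 79 genes were lower than in YAP1-MAMLD1-dR3R1 tumours, where 16.9% of all genes were, and 2 were higher, where 22.6% were. The median log2 fold change was -0.73 against -0.05 over all genes. The count of lower genes stayed between 59 and 65 when any 1 library was left out, and without YAP1-FAM118B replicate 2 and naive replicate 2 together 63 were lower and 2 higher. In 66 genes every YAP1-TFE3 library lay below every YAP1-MAMLD1-dR3R1 library, and the share of all genes with that separation was not counted. Among the largest called decreases were those of Rps9 at -1.18 ± 0.22, Rpl39 at -1.04 ± 0.22 and Rps20 at -1.02 ± 0.20 (± SE), with edgeR adjusted p of 0.00206, 0.00406 and 0.00314. Rpl39, a short protein that lines the exit tunnel, had 70.0, 59.9 and 83.6 CPM in YAP1-TFE3 tumours, 111, 85.8 and 141 CPM in YAP1-FAM118B tumours and 113, 156 and 171 CPM in YAP1-MAMLD1-dR3R1 tumours, against 33.0, 34.5 and 29.0 CPM in naive cortex. Rps20, of the small subunit head, had 208, 185 and 228 CPM in YAP1-TFE3 tumours, 346, 221 and 379 CPM in YAP1-FAM118B tumours and 347, 463 and 448 CPM in YAP1-MAMLD1-dR3R1 tumours, against 87.0, 89.0 and 81.7 CPM in naive cortex. In both genes the YAP1-TFE3 libraries lay below the YAP1-MAMLD1-dR3R1 libraries. The YAP1-FAM118B libraries overlapped with those of YAP1-MAMLD1-dR3R1, and in Rps20 also with those of YAP1-TFE3.

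The 2 genes higher in YAP1-TFE3 than in YAP1-MAMLD1-dR3R1 tumours were Rpl3l, by 3.64 ± 0.62 with an edgeR adjusted p of 0.00135, and Rps27l, by 0.81 ± 0.25 with an adjusted p of 0.0271 (± SE). The same 2 genes were higher in YAP1-TFE3 than in YAP1-FAM118B tumours, by 2.24 ± 0.57 and 0.99 ± 0.25, with adjusted p of 0.00836 and 0.00829. Rps27l kept its direction in every alternative fit, but its call depended on scaling, filter and single libraries. Against YAP1-MAMLD1-dR3R1 it was lost with upper-quartile factors (0.66, edgeR adjusted p = 0.0600), library size only (0.61, adjusted p = 0.0729), no filter beyond 1 count (0.64, adjusted p = 0.0860) and a filter of 1 CPM in 3 libraries (0.64, adjusted p = 0.0699). In a test against 1.5-fold neither difference passed, with adjusted p of 0.215 for YAP1-MAMLD1-dR3R1 and 0.0652 for YAP1-FAM118B. Against YAP1-MAMLD1-dR3R1 it was also lost without any 1 of the YAP1-TFE3 or YAP1-MAMLD1-dR3R1 libraries or naive replicate 1, at 0.62 to 0.74 with adjusted p of 0.0758 to 0.140. Against YAP1-FAM118B it was lost without any 1 of the YAP1-TFE3 libraries or YAP1-MAMLD1-dR3R1 replicates 2 or 3, at 0.69 to 0.77 with adjusted p of 0.0522 to 0.0863. Rpl3l against YAP1-FAM118B was lost without YAP1-TFE3 replicate 3, at 1.62 with an adjusted p of 0.0540.

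For some genes that rose against cortex, no difference between fusions passed the test. Rps2, at the entrance of the messenger RNA channel, had 579, 498 and 506 CPM in YAP1-TFE3 tumours and 567, 450.4 and 659 CPM in YAP1-FAM118B tumours. It had 606, 527 and 598 CPM in YAP1-MAMLD1-dR3R1 tumours, against 176, 189 and 166 CPM in naive cortex. Its log2 difference was -0.08 ± 0.16 for YAP1-TFE3 against YAP1-FAM118B, -0.13 ± 0.16 for YAP1-TFE3 against YAP1-MAMLD1-dR3R1 and -0.05 ± 0.16 for YAP1-FAM118B against YAP1-MAMLD1-dR3R1 (± SE), and the tumour libraries overlapped. Rpl41, a very short basic peptide, had 115, 133 and 154 CPM in YAP1-TFE3 tumours and 137, 106 and 169 CPM in YAP1-FAM118B tumours. It had 121, 141 and 163 CPM in YAP1-MAMLD1-dR3R1 tumours, against 51.2, 59.1 and 53.01 CPM in naive cortex. The tumour groups overlapped again, with differences of -0.03 ± 0.18, -0.08 ± 0.18 and -0.05 ± 0.18. Rpl38, which mouse embryos need to translate a subset of Hox messenger RNAs, averaged 88.2 ± 5.17 CPM in YAP1-TFE3 tumours, 73.1 ± 14.1 CPM in YAP1-FAM118B tumours and 95.1 ± 9.79 CPM in YAP1-MAMLD1-dR3R1 tumours, against 39.9 ± 3.53 CPM in naive cortex (SD, n = 3 each), and none of its 3 differences between fusions passed the test.

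The difference between YAP1-TFE3 and YAP1-FAM118B tumours was smaller and less stable. In YAP1-TFE3 tumours 23 genes were lower, where 23.7% of all genes were, and 2 were higher, where 28% were, with a median of -0.38 against 0.08 over all genes. The share of ribosomal protein genes called lower, 23 of 79, was near that background. The lowest called values were Rpl12 at -0.73 ± 0.18, Rpl14 at -0.67 ± 0.18, Rpl39 at -0.66 ± 0.21 and Rpl17 at -0.62 ± 0.19 (± SE), with edgeR adjusted p of 0.00724, 0.0102, 0.0254 and 0.0215. Rpl14 had 156, 145 and 187 CPM in YAP1-TFE3 tumours and 255, 198 and 324 CPM in YAP1-FAM118B tumours. It had 274, 297 and 330.1 CPM in YAP1-MAMLD1-dR3R1 tumours, against 99.1, 99.2 and 102 CPM in naive cortex. Its YAP1-TFE3 libraries lay below all YAP1-FAM118B libraries, but replicate 2 of YAP1-FAM118B came near them. The calls of Rpl39 and Rpl17 were lost without YAP1-FAM118B replicate 1, with adjusted p of 0.0555 and 0.0697, and without its replicate 3, with 0.0992 and 0.0742. The count of lower genes was 46 without YAP1-FAM118B replicate 2, 3 without its replicate 1 and 2 without its replicate 3, and 41 without YAP1-FAM118B replicate 2 and naive replicate 2 together. It was 38, 39 and 49 without YAP1-TFE3 replicates 1, 2 and 3, 51 and 54 without YAP1-MAMLD1-dR3R1 replicates 2 and 3, and 52 without naive replicate 1.

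The pair with the fewest called genes was YAP1-FAM118B and YAP1-MAMLD1-dR3R1. In YAP1-FAM118B tumours 8 genes were lower, where 13.5% of all genes were, and 0 were higher, where 12.7% were, with a median of -0.34 against -0.05 over all genes. The share of ribosomal protein genes called lower, 8 of 79, was below that background. At an unadjusted p under 0.05, edgeR had 1 gene higher and 27 lower, and DESeq2 called 0 higher and 18 lower. Among the 8 genes were Rps9 at -0.74 ± 0.21, Rps29 at -0.71 ± 0.21, Rps4x at -0.60 ± 0.19 (± SE), Rpl35a, Rpl21, Rpl27 and Rps25, with edgeR adjusted p of 0.0325, 0.0322 and 0.0416 for the first 3. Rps29, a zinc-binding protein of the small subunit head, had 32.5, 28.2 and 38.1 CPM in YAP1-TFE3 tumours and 32.3, 31.2 and 34.1 CPM in YAP1-FAM118B tumours. It had 40.5, 57.7 and 62.0 CPM in YAP1-MAMLD1-dR3R1 tumours, against 16.3, 22.5 and 14.3 CPM in naive cortex. The YAP1-TFE3 and YAP1-FAM118B libraries of Rps29 overlapped below the YAP1-MAMLD1-dR3R1 libraries. Rps9, Rps29 and Rps4x each lost the call without any 1 of YAP1-TFE3 replicate 1, YAP1-FAM118B replicates 1 and 2, YAP1-MAMLD1-dR3R1 replicates 2 and 3 and naive replicate 1, with adjusted p of 0.0513 to 0.205. The call was also lost without YAP1-TFE3 replicate 2 or 3 for Rps9 and Rps4x, without YAP1-FAM118B replicate 3 for Rps29, and without naive replicate 2 or 3 for Rps4x. The count for this pair changed with most libraries: 20 genes were lower without YAP1-MAMLD1-dR3R1 replicate 1, 12 without YAP1-FAM118B replicate 3, 4 without naive replicate 2 or 3, 3 without YAP1-TFE3 replicate 3, 1 without YAP1-TFE3 replicate 2, and 0 without any other single library or without YAP1-FAM118B replicate 2 and naive replicate 2 together.

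**Figure D5:**
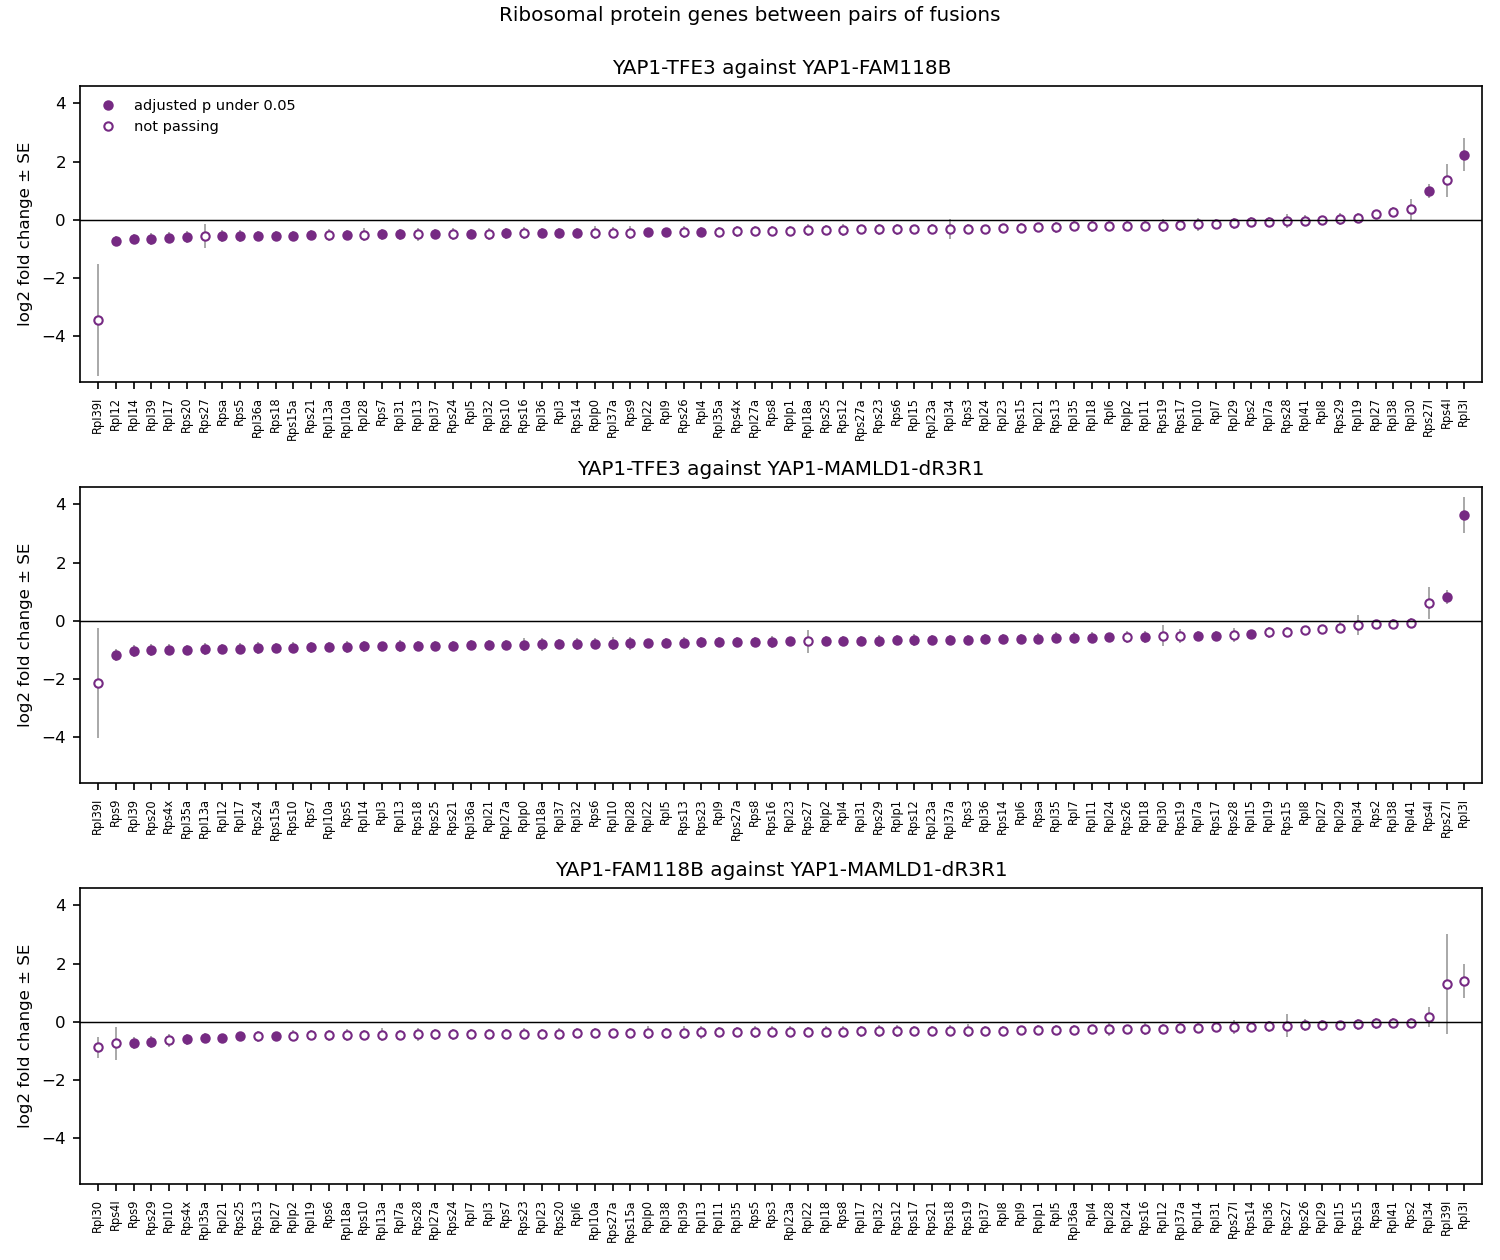
log2 fold change of 78 of the 79 genes between pairs of fusions, sorted within each panel, with bars for the SE, filled points for an adjusted p under 0.05 and open points otherwise. Nearly all points lie below 0 in each panel, with medians over the 79 genes of -0.38, -0.73 and -0.34, while Rpl3l and Rps27l are the called genes above 0.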

How the data were processed

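Bulk RNA-seq was analysed from 12 libraries, 3 per group. Whole-number read counts per gene symbol were deposited, and the submitters' processing notes name HTSeq and build mm10. Aligner, annotation, strand setting and filters were not given in the sources used here. Reads of near-identical copies and of antisense transcripts therefore could not be told apart. Total counts were 19850220 to 24760814 per library. The 24421 symbols included 4096 with no count.

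Groups were taken from the labels. The filter filterByExpr (minimum count 10) passed 16364 genes. TMM factors scaled the libraries. All 12 libraries were fitted together with the quasi-likelihood test of edgeR 4.0.16 (limma 3.58.1, R 4.3.3), with Benjamini-Hochberg adjustment over all genes tested, separately for each of 6 comparisons, and a call at an adjusted p under 0.05. The SE is the log2 fold change divided by the square root of F. CPM used the TMM-scaled library sizes. The fit was tested on simulated data with known fold changes.

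The genes and lists were chosen with earlier results of these data known. Genes named were up to 4 per direction and comparison by fold change among called genes whose libraries did not overlap, called genes against the majority, genes fixed for their roles and paralogues, and of each list up to 3 genes per comparison by adjusted p. Rps21, Rpl15, Rpl9, Rps2, Rpl41, Rpl38, Rpl34, Rpl30, Rps27, Fau, Gas5, Mtor and Cdkn1a were named after their values were seen where they fell outside this rule. A gene that the rule names is not reported here. Coding lengths and shared 50-base windows came from GENCODE M21, and start windows from the RefSeq table.

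Alternatives were RLE, upper-quartile and library-size scaling, TMM factors without the ribosomal protein genes, 2 other filters, DESeq2 1.42.0, robust dispersion, a test against 1.5-fold, a replicate block, only the 2 groups compared, other memberships, each library left out, and the 2 libraries with Xist and Y-linked counts left out together.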

Additional observations from a re-analysis of the deposited data

Results flagged for a closer look

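Rps27l and Rpl3l differed between the fusions against the direction of most ribosomal protein genes, by a test of the difference between tumour types. Rps27l was higher in YAP1-TFE3 tumours by 0.99 on the log2 scale against YAP1-FAM118B tumours and by 0.81 against YAP1-MAMLD1-dR3R1 tumours. The call against YAP1-MAMLD1-dR3R1 was lost under other scalings, other filters and when single libraries were left out, and that against YAP1-FAM118B when single libraries were left out. Rpl3l was higher by 2.24 against YAP1-FAM118B tumours and by 3.64 against YAP1-MAMLD1-dR3R1 tumours. Rpl10l, outside the comparisons because of its low counts, had 5 counts in YAP1-TFE3 replicate 1, and 0 in the other 2 YAP1-TFE3 libraries and in each naive library, so the signal rests on 1 library and was not tested.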

How the results depend on the processing

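No ribosomal protein gene was lower than naive under any alternative run, and the counts of higher genes kept within 1.5 times of 74, 73 and 74, being 59, 67 and 74 in a test against 1.5-fold. Leaving out 1 library gave 62 to 74, 73 and 74. For YAP1-TFE3 against YAP1-FAM118B, the 23 lower genes became 37 with RLE factors, 39 with upper-quartile factors, 55 with library size only, 48 with no filter beyond 1 count, 57 with a filter of 1 CPM in 3 libraries, 46 with DESeq2, 0 in the test against 1.5-fold, 8 with only the 2 groups compared, 41 without both libraries with Xist and Y-linked counts, and 2 to 54 leaving out 1 library. The 2 higher genes became 1 in the test against 1.5-fold and 0 to 3 leaving out 1 library. For YAP1-TFE3 against YAP1-MAMLD1-dR3R1, the 2 higher genes became 1 with upper-quartile factors, with library size only, under either other filter and against 1.5-fold, and 1 to 2 leaving out 1 library, while the 61 lower became 8 against 1.5-fold. For YAP1-FAM118B against YAP1-MAMLD1-dR3R1, the 8 lower became 15 with upper-quartile factors, 2 with no filter beyond 1 count, 2 with 1 CPM in 3 libraries, 18 with DESeq2, 0 against 1.5-fold, 1 with only the 2 groups, 0 without both libraries, and 0 to 20 leaving out 1 library. The replicate block gave 73, 73 and 74 higher against naive, 2 higher and 17 lower, 2 higher and 62 lower, and 0 higher and 8 lower. Same-numbered libraries correlated at -0.11 to 0.32 in their deviations, so the numbers were not taken to pair them. Against naive, uncalled values of scarce or uneven genes changed sign. Rpl39l in YAP1-TFE3 tumours, at 0.10, was at -0.079 with RLE factors, -0.050 with upper-quartile factors, -0.13 with library size only, -0.093 with no filter, -0.13 with 1 CPM, -0.11 with DESeq2, -0.47 without both libraries and -1.28 to 2.75 leaving out 1. Leaving out 1 library also gave -1.35 to 4.89 for Rpl39l in YAP1-MAMLD1-dR3R1 tumours, -0.27 to 1.08 for Rps4l in YAP1-TFE3 tumours and -0.031 to 0.66 in YAP1-MAMLD1-dR3R1 tumours, -0.23 to 0.13 for Rps27 in YAP1-FAM118B tumours (0.016 with 1 CPM) and -0.079 to 0.37 in YAP1-MAMLD1-dR3R1 tumours, and -0.68 to 0.25 for Rpl3l in YAP1-MAMLD1-dR3R1 tumours (0.19 without both libraries). The summed level in YAP1-TFE3 tumours was 15252 CPM with library size only. The causes were not tested. Counts of 3 or fewer set the depth limit for Rpl39l and Rpl3l.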
